A study of Mus musculus with 18 samples.

Results

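The effect of a mutant huntingtin transgene on gene expression in mouse hippocampus was measured at 10 and at 20 weeks of age, and the effects at these ages were compared gene by gene. The comparison rests on the 12 arrays whose titles name the hippocampus, of 18 arrays in all, in 4 groups of 3: transgenic and wild-type mice at 10 weeks, and transgenic and wild-type mice at 20 weeks. The remaining arrays, 3 transgenic and 3 wild-type, are of cerebellum at 10 weeks and entered only the estimate of spread. The transgenic mice, titled N171-HD82Q and of the strain PrP-htt-N171-82Q, express a piece of the N-terminus of huntingtin, of human sequence and with too many glutamines in a row, from the prion promoter of the mouse. They model Huntington's disease. Controls were their wild-type littermates, both genotypes had a DBA and C57BL/6J mixed background, and the labels give no treatment. Each array was hybridised with RNA of 3 to 4 animals, mixed in equal amounts, so a p-value measures the spread between pools. The 10-week animals were males and the 20-week animals females, and age and sex therefore cannot be told apart here.

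Huntington's disease is caused by an expanded glutamine repeat in huntingtin, and in mice that express such a fragment many neuronal transcripts decline while most neurons are still present. The hippocampus is built of granule neurons in the dentate gyrus and pyramidal neurons in the CA fields, which fire in patterns that switch on immediate early genes such as Arc and Npas4. Their excitability rests on potassium, sodium and calcium channels, and calcium entry is read by kinases and phosphatases at the synapse.

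In what follows, the effect at an age is the mean of the 3 transgenic arrays minus the mean of the 3 wild-type arrays of the same age, in log2 units. Apart from the check of the labelled sexes, levels were not compared between ages, because the 10-week and the 20-week arrays appear to have been normalised separately. A gene was called where its adjusted p (limma, Benjamini-Hochberg over 19938 genes) was below 0.05. It persisted where it was called at both ages in 1 direction, and it grew or shrank only where the difference between its effects was itself called. Of the arrays, transgenic array 1 at 20 weeks stood apart: its mean correlation with the other arrays of its group was 0.973, against 0.984 to 0.995 for the other hippocampus arrays. Among the 141 persisting falls it was the lowest transgenic array of its age in 121, and each main result is therefore given with and without it. Xist read 4.44 to 4.57 on the 10-week arrays and 10.98 to 11.22 on the 20-week arrays, and Uty, on the Y chromosome, read 7.49 to 7.84 and 3.82 to 4.01, as the labelled sexes have it. Markers of hippocampal neurons were present: Wfs1, of CA1 pyramidal neurons, read 9.48 to 9.73 in wild type at 10 weeks, and Prox1, the defining transcription factor of granule neurons, read 8.61 to 8.70. The probe set of Htt, assigned to the mouse gene, gave effects of 0.01 at 10 weeks and 0.05 at 20 weeks. Whether its probes read the human fragment was not tested, so it is no check of the transgene.

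No gene grew or shrank by the test of the difference with all arrays. Of 19938 genes, 0 had a called difference between the 20-week and the 10-week effect (0.0% of genes, lowest adjusted p = 0.942 by limma), and 949 had an unadjusted p below 0.05, which is 4.76% of genes. The fit on the 12 hippocampus arrays alone also called 0, with 633 genes at an unadjusted p below 0.05. The difference of a gene was measured with a 95% interval of ±0.28 log2 units in the median gene, a ratio of 1.22 either way. A change in the effect that is smaller than this was not detectable in most genes. Larger changes could also go uncalled, because this interval is not adjusted for the 19938 genes tested. Spag6, with a difference of 0.63, was not called. The absence of calls does not show that the effects at the 2 ages were equal.

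At 10 weeks 0.858% of the genes tested were called, 151 lower (0.757%) and 20 higher (0.1%) in the transgenic mice. At 20 weeks 1119 were called (5.61%), of which 599 were lower (3.0%) and 520 higher (2.61%). The genes called at both ages in 1 direction numbered 159 (0.797% of all genes), 141 lower (0.707%) and 18 higher (0.0903%), and no gene was called in opposite directions. These 159 are 93.0% of the genes called at 10 weeks and 14.2% of those called at 20 weeks. In all 159 the ranges of the genotypes were apart at both ages, a pattern that 1075 genes showed (5.39%).

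These counts depend on single arrays. The 10-week count moved to 113 and 110 without wild-type array 2 or 3 at 10 weeks, to 110, 101 and 82 without transgenic array 1, 2 or 3 at 10 weeks, and to 438 without transgenic array 1 at 20 weeks. The 20-week count fell to 259 and 495 without wild-type array 1 or 2 at that age and to 581 and 413 without transgenic array 2 or 3, and rose to 6445 (32.3% of genes) without transgenic array 1. The count of persisting genes was 104, 99 and 82 without transgenic array 1, 2 or 3 at 10 weeks. Without transgenic array 1 at 20 weeks it was 329 (1.65%), and these included all 159. The 20-week calls also rest on a spread estimated over all 18 arrays: when each age was fitted on its own 6 arrays, limma called 176 genes at 10 weeks and 0 at 20 weeks (2835 with an unadjusted p below 0.05, lowest adjusted p = 0.0774), and no gene persisted. With arrays weighted by their agreement with their group, 3617 differences were called. That fit gave a weight of 0.0815 to transgenic array 1 at 20 weeks, but also 9.91 to wild-type array 2 and 8.79 to transgenic array 3 at 10 weeks, against 0.288 to 0.865 for the other 10-week arrays, so its 10-week effect rests mostly on 1 array of each genotype.

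Read in 1 direction, from 10 weeks to 20 weeks, the effects called at 10 weeks kept their sign in every gene. All 151 genes called lower at 10 weeks had a negative effect at 20 weeks, 141 of them called, and their median effect was -0.50 at 10 weeks and -0.52 at 20 weeks. Without transgenic array 1 the 20-week median was -0.44. All 20 genes called higher at 10 weeks had a positive effect at 20 weeks, with a median of 0.49 at 10 weeks and 0.61 at 20 weeks, or 0.65 without that array. In the other direction, 525 of the 599 genes called lower at 20 weeks were already negative at 10 weeks, with medians of -0.42 at 20 and -0.24 at 10 weeks. Of the 520 called higher at 20 weeks, 489 were already positive, with medians of 0.38 and 0.16. Each set is read at the age that did not choose it; over all genes, 64.2% had the same sign at both ages, and the effects correlated across genes with a Pearson r of 0.559 and a Spearman rho of 0.451 (0.448 and 0.392 without the array). Genes are not independent replicates, and this correlation is a description.

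**Figure D1:**
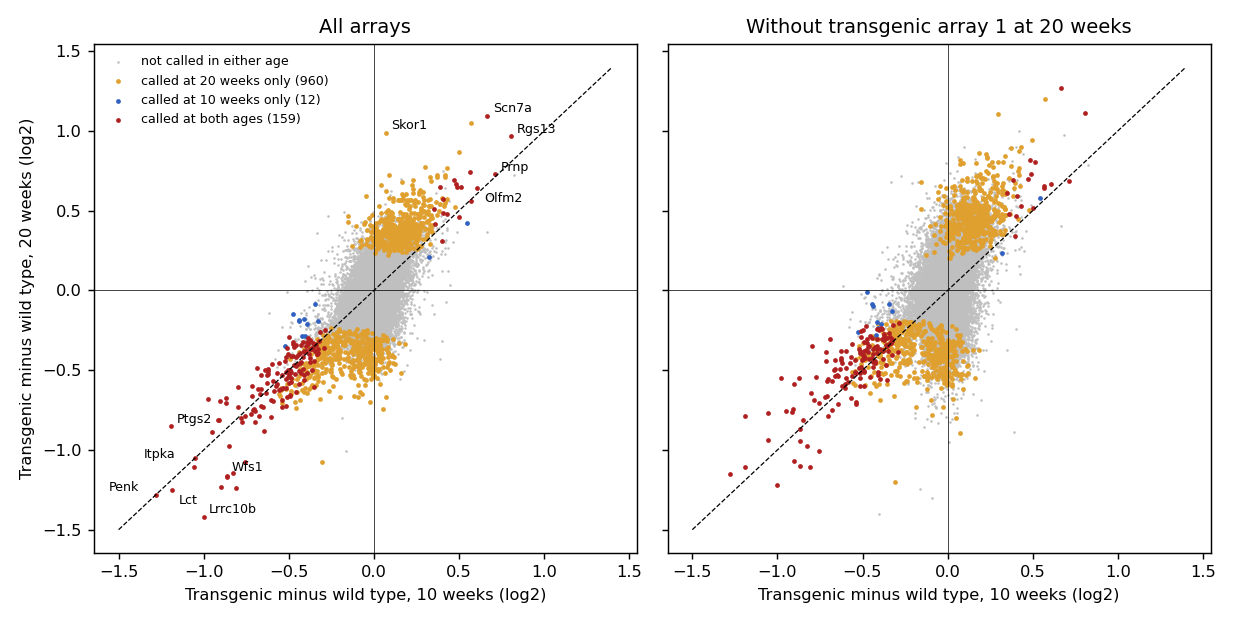
Genotype effect of each of 19938 genes at 10 weeks (horizontal, log2) and at 20 weeks (vertical, log2), with all arrays (left) and without transgenic array 1 at 20 weeks (right); colours mark the calls made with all arrays, and the dashed line marks equal effects. The 159 genes called at both ages lie along the dashed line in both panels, while the 960 called at 20 weeks only have smaller effects at 10 weeks. Both patterns are in part built in by the calls that sort the genes.

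Within the 159 persisting genes, the median size of the effect was 0.507 at 10 weeks and 0.533 at 20 weeks (0.479 without transgenic array 1). Of them, 91 had the larger effect at 20 weeks and 68 at 10 weeks; without the array, 53 had the larger effect at 20 weeks. Their differences ran from -0.43 to 0.43, and for 147 of the 159 the 95% interval of the difference lay within a 1.5-fold change of the effect either way. Of the 159, 5 had an unadjusted p below 0.05 for the difference, 3.14% of them against 4.76% of all genes, a share lowered by choosing genes called in 1 direction at both ages: C1ql2, Homer3, Nfya, Scn7a and Cirbp, the last of which, a cold-inducible RNA-binding protein, was named after its value was seen. In all 5 the larger effect was at 20 weeks (Cirbp 0.39 at 10 weeks and 0.65 at 20 weeks), and each had an adjusted p of 0.942 by limma.

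Penk, the precursor of the enkephalin opioid peptides, had the largest persisting fall at 10 weeks. It read 9.36, 9.20 and 9.34 in wild type and 8.07, 8.04 and 7.94 in transgenic mice at 10 weeks, and 9.21, 8.77 and 8.90 against 7.41, 7.83 and 7.79 at 20 weeks. No transgenic array reached a wild-type array of its age. The effect was -1.28 at both ages (SE 0.125), a 2.43-fold lower level, with adjusted p of 5.84e-05 and 2.09e-05 by limma. The difference was 0.00 with a 95% interval from -0.37 to 0.37. Chgb, chromogranin B of dense-core vesicles, fell by 0.68 at 10 weeks and by 0.62 at 20 weeks, with 3 transgenic arrays below 3 wild-type arrays at each age. Of 25 measured neuropeptides and granins, these were the 2 called at 10 weeks, and 3 were called lower and 1 higher at 20 weeks.

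Genes that mark dentate granule neurons were mostly lower. All 15 measured members were lower at 10 weeks and 14 at 20 weeks; 10 and 12 were called lower, and 10 at both ages. The median effect of the list was -0.62 at 10 weeks and -0.53 at 20 weeks, or -0.42 without transgenic array 1, beside 0.006 and -0.005 over all genes. The median difference between the ages was 0.07, and 7 of 15 differences were negative. In pools of tissue, fewer granule neurons and less RNA of these genes per neuron cannot be told apart. No list is given a test here, and the counts are read beside the shares of all genes above. The lists and their members were chosen with earlier results of these data known. Their counts, here and below, are therefore descriptions and not independent support.

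Lct, lactase, a granule neuron marker in this tissue, read 8.09, 8.16 and 8.26 in wild type and 6.81, 7.17 and 6.97 in transgenic mice at 10 weeks. At 20 weeks it read 8.37, 7.71 and 7.89 against 6.45, 6.92 and 6.84. The wild-type arrays were more spread at 20 weeks, and the groups still did not overlap. The effects were -1.19 and -1.25, with a difference of -0.06 (95% interval -0.48 to 0.36). Dsp, which encodes the junction protein desmoplakin, fell by 0.90 at 10 weeks and by 1.23 at 20 weeks. Stxbp6, a SNARE-binding protein, fell by 0.85 and by 0.98. C1ql2, a secreted synaptic protein of mossy fibres, read 8.59, 8.49 and 9.16 against 7.89, 7.86 and 8.05 at 10 weeks, and 8.55, 8.52 and 8.24 against 6.94, 7.39 and 7.26 at 20 weeks. Its effect was -0.81 and then -1.24, with an unadjusted p of 0.0491 for the difference of -0.43 (adjusted p = 0.942 by limma) and a difference of -0.30 without transgenic array 1. Prox1, which granule neurons need for their identity, had effects of -0.29 and -0.12 and was not called at either age.

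Markers of CA pyramidal neurons were lower in every one of 19 measured members at both ages. Of them 4 were called at 10 weeks and 7 at 20 weeks, the 4 among the 7, and the median effect was -0.44 and -0.40. Without transgenic array 1 the 20-week median was -0.22. The median member lay 0.76 below its wild-type mean on that array and 0.20 and 0.24 below on the other 2 transgenic arrays; 7 members were again called lower without it. Wfs1, a membrane protein of the endoplasmic reticulum, read 9.67, 9.73 and 9.48 against 8.74, 8.73 and 8.81 at 10 weeks, and 9.69, 9.64 and 9.69 against 8.06, 8.76 and 8.70 at 20 weeks. Array 1 gave the lowest value, and the other transgenic arrays still lay below every wild-type array. Its effect was -0.87 at 10 weeks and -1.17 at 20 weeks, or -0.95 without array 1. Neurod6, a transcription factor of pyramidal neurons, fell by 0.80 and by 0.73. Bok, a member of the Bcl-2 family, fell by 0.60 and by 0.79; its 10-week call was lost without wild-type array 1 or 3 or any transgenic array of that age (highest adjusted p = 0.1535 by limma).

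**Figure D2:**
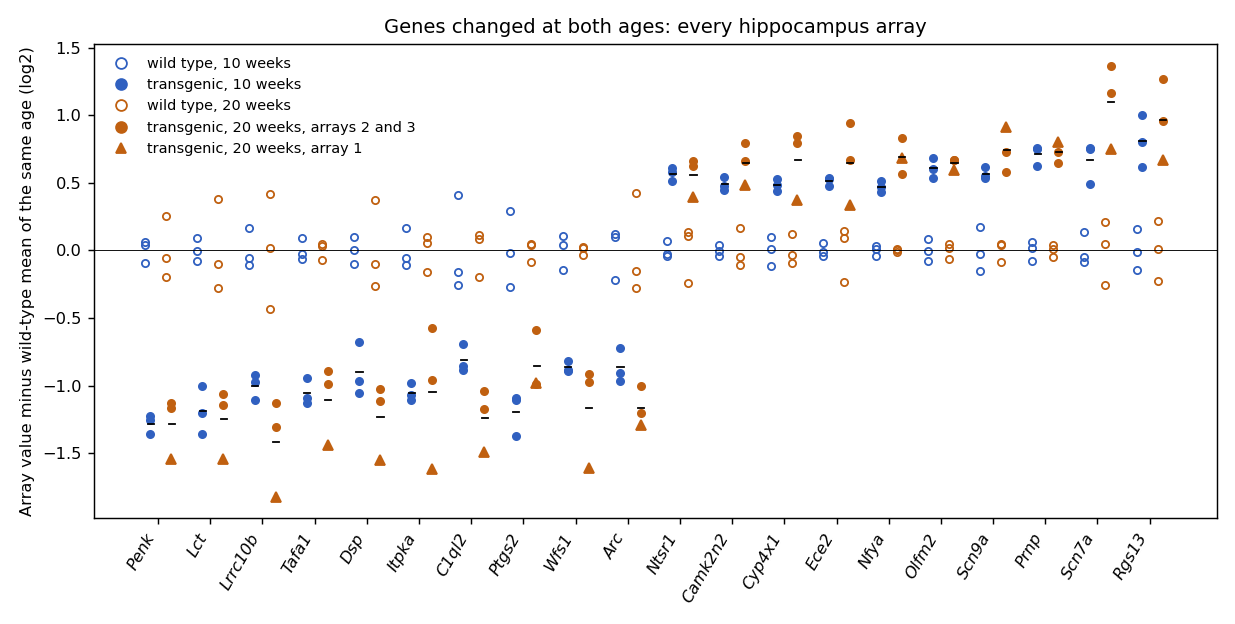
Value of each hippocampus array minus the wild-type mean of the same age (vertical, log2) for the 10 persisting genes of largest mean fall and the 10 of largest mean rise (horizontal), with open symbols for wild type, filled symbols for transgenic and short lines for transgenic means. No filled symbol reaches the open symbols of its age, and the triangle, transgenic array 1 at 20 weeks, is the lowest transgenic array of its age for 9 of the 10 falls, Ptgs2 being the exception.

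Immediate early genes, the first that a neuron switches on when it fires, were in part lower. Of 36 measured members, 32 had a negative effect at 10 weeks and 34 at 20 weeks; 6 were called lower at 10 weeks and 15 at 20 weeks, the 6 among the 15 (Arc, Homer1, Jun, Npas4, Plk2 and Ptgs2), and none was called higher. The median effect was -0.25 at 10 weeks and -0.35 at 20 weeks (-0.26 without transgenic array 1, when 15 were again called). The difference was negative in 28 of 36 members, with a median of -0.12, but without the array the median difference was -0.04 and no member had an unadjusted p below 0.05 for the difference with all arrays. Arc, which encodes a cytoskeletal protein that regulates glutamate receptor trafficking, read 9.13, 8.79 and 9.11 against 8.29, 8.10 and 8.05 at 10 weeks. At 20 weeks it read 9.49, 8.92 and 8.79 against 7.78, 8.06 and 7.87. Its effect was -0.87 and -1.17, and the difference of -0.30 had an interval from -0.72 to 0.12. Ptgs2, cyclooxygenase-2, had the smaller effect at 20 weeks. It read 8.89, 8.63 and 9.20 against 7.80, 7.53 and 7.81 at 10 weeks and 8.52, 8.53 and 8.39 against 7.50, 7.88 and 7.49 at 20 weeks. Its effect was -1.19 and -0.85, and the difference of 0.34 (interval -0.10 to 0.78) did not pass the test. Jun, a subunit of the AP-1 transcription factor, fell by 0.41 and by 0.56, and its 10-week call was lost without any 1 of the 3 wild-type arrays or transgenic array 2 or 3 of that age (highest adjusted p = 0.212 by limma).

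Genes of calcium signalling fell in part. Of 38 measured members, 6 were called lower and 2 higher at 10 weeks, and 13 lower and 2 higher at 20 weeks; 5 falls and 2 rises persisted. Itpka, a kinase of inositol trisphosphate concentrated in dendritic spines, read 8.63, 8.68 and 8.90 against 7.76, 7.63 and 7.66 at 10 weeks and 9.20, 8.94 and 9.16 against 7.48, 8.53 and 8.14 at 20 weeks. Its effect was -1.05 at both ages, but the 20-week value was -0.77 without transgenic array 1, which lay lowest. Prkcb, a protein kinase C, fell by 0.33 and by 0.39, and Orai2, a store-operated calcium channel, by 0.46 and by 0.64. The 10-week calls of both were lost without single 10-week arrays (4 arrays for Prkcb, highest adjusted p = 0.134; 6 arrays for Orai2, highest adjusted p = 0.1536, both by limma). Of the rises, Camk2n2 encodes an inhibitor of the calcium and calmodulin dependent kinase CaMKII. It read 7.95, 8.03 and 7.99 against 8.46, 8.53 and 8.44 at 10 weeks and 8.05, 8.11 and 8.32 against 8.64, 8.82 and 8.96 at 20 weeks. The effect was 0.49 and 0.65, with a difference of 0.16 (interval -0.10 to 0.42).

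Among potassium channels, 6 of 40 measured members were called lower at 10 weeks and 9 at 20 weeks, 5 at both ages and none higher. Kcnh3, a voltage-gated channel of forebrain neurons, read 8.23, 8.31 and 8.31 against 7.62, 7.52 and 7.59 at 10 weeks. At 20 weeks it read 8.54, 8.49 and 8.40 in wild type, and all 3 transgenic arrays lay below. Its effects of -0.71 and -0.75 differed by -0.04 (interval -0.36 to 0.28). Kcnk4, the background channel TRAAK, fell by 0.70 and by 0.83. Kcnq3, a subunit of the M-current, fell by 0.33 and by 0.40, and its 10-week call was lost without any 1 of the 6 arrays of that age, wild-type array 2 or 3 at 20 weeks, or transgenic array 3 at 20 weeks (highest adjusted p = 0.251 by limma); its 20-week call was lost without wild-type array 1 of that age (adjusted p = 0.05626 by limma). Sodium and calcium channels had no persisting fall; of 27 measured members, 2 were called higher at 10 weeks, and 4 higher and 5 lower at 20 weeks. The 2 persisting rises were Scn7a, a sodium-sensing relative of the voltage-gated channels, and Scn9a, the channel NaV1.7.

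Scn7a read 5.74, 5.56 and 5.52 in wild type and 6.35, 6.36 and 6.10 in transgenic mice at 10 weeks, and 4.73, 5.03 and 5.19 against 5.74, 6.15 and 6.35 at 20 weeks. The effect was 0.67 and then 1.10, the widest gap among the persisting rises, with an unadjusted p of 0.036 for the difference (adjusted p = 0.942 by limma). Without transgenic array 1 the difference was 0.60 (adjusted p = 0.0715). Scn9a read 5.72, 5.92 and 5.60 against 6.36, 6.30 and 6.28 at 10 weeks and 5.82, 5.94 and 5.95 against 6.82, 6.63 and 6.48 at 20 weeks, with effects of 0.56 and 0.74. The 10-week calls were fragile: that of Scn7a was lost without any of 4 single arrays (highest adjusted p = 0.1053) and that of Scn9a without any of 5 (highest adjusted p = 0.1109, both by limma).

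A minority of the genes of the synapse were called lower. Of 29 postsynaptic scaffold genes, 5 were called lower at 10 weeks and 7 at 20 weeks, with 5 at both; of 31 presynaptic release genes, 3 and 7 were called lower, with 3 at both. Ddn, dendrin, a postsynaptic protein made in dendrites, read 11.29, 11.34 and 11.50 against 10.63, 10.48 and 10.54 at 10 weeks and 11.45, 11.28 and 11.35 against 9.88, 10.48 and 10.28 at 20 weeks. Its effect was -0.83 and -1.14, or -0.98 at 20 weeks without transgenic array 1, and the difference had an unadjusted p of 0.0516. Cnksr2, a scaffold of Ras signalling, fell by 0.41 and by 0.53. Homer3, which links metabotropic glutamate receptors to calcium stores, fell by 0.35 and by 0.60, with an unadjusted p of 0.0348 for the difference (adjusted p = 0.942 by limma) and a 10-week call that was lost without any 1 of the 6 arrays of that age (highest adjusted p = 0.1249). Doc2b, a calcium sensor of vesicle release, fell by 0.52 and by 0.41, the 20-week call lost without wild-type array 1 of that age (adjusted p = 0.06147 by limma). Of 21 glutamate receptor genes, Grin2a, the GluN2A subunit of the NMDA receptor, was the 1 called at 10 weeks and 1 of 4 called at 20 weeks, all lower: it fell by 0.68 and by 0.79. Of 11 GABA receptor genes, Gabrd, the extrasynaptic delta subunit, was the 1 called at both ages, and it fell by 0.44 and by 0.45.

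The other persisting falls of largest mean size were Tafa1 and Lrrc10b. Tafa1, a secreted chemokine-like protein of neurons, read 10.13, 10.10 and 10.25 against 9.07, 9.03 and 9.21 at 10 weeks and 10.41, 10.31 and 10.42 against 8.94, 9.49 and 9.39 at 20 weeks, with effects of -1.05 and -1.10. Lrrc10b, a leucine-rich repeat protein, read 8.56, 8.29 and 8.35 against 7.48, 7.43 and 7.29 at 10 weeks. It had the largest effect of any persisting gene at 20 weeks, -1.42 (adjusted p = 0.000139 by limma), with 20-week wild-type arrays spread from 7.62 to 8.47 and transgenic arrays from 6.23 to 6.93. Its difference of -0.42 had an interval from -0.93 to 0.09, and it was -0.22 without transgenic array 1. The 10 falls of largest mean size (Penk, Lct, Lrrc10b, Tafa1, Dsp, Itpka, C1ql2, Ptgs2, Wfs1 and Arc) kept both calls when any 1 of the 12 hippocampus arrays was left out. Those fits still estimated 1 spread over all remaining arrays. With each age fitted on its own 6 arrays, none of these genes kept both calls.

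Prnp, the prion protein gene whose promoter drives the transgene, rose at both ages. It read 10.56, 10.65 and 10.70 in wild type and 11.39, 11.26 and 11.39 in transgenic mice at 10 weeks, and 11.39, 11.42 and 11.32 against 12.18, 12.02 and 12.10 at 20 weeks. The effect was 0.71 at 10 weeks and 0.73 at 20 weeks, 1.64-fold and 1.66-fold, with adjusted p of 5.84e-05 and 2.09e-05 by limma. The difference was 0.01 with an interval from -0.20 to 0.23, and -0.02 without transgenic array 1. Which transcripts its probe set reads was not tested.

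Nfya, a subunit of the transcription factor NF-Y that binds the CCAAT box, read 8.24, 8.22 and 8.17 against 8.68, 8.64 and 8.72 at 10 weeks and 7.95, 7.97 and 7.98 against 8.66, 8.53 and 8.80 at 20 weeks. Its effect was 0.47 and then 0.69, with an unadjusted p of 0.0401 for the difference of 0.22 (adjusted p = 0.942 by limma). The promoters of a persisting rise and a persisting fall are shown because Prnp also supplies the transgene's promoter and Wfs1 is the leading CA marker; the CCAAT box was looked for after the values of Nfya were seen. Each is the stretch of 250 bases before the start of the gene in RefSeq (build GRCm38.p6; Prnp on the plus strand at chr2:131909678-131909927, Wfs1 on the minus strand at chr5:36988983-36989232), with capitals marking CCAAT, here present as its reverse complement ATTGG.
Prnp: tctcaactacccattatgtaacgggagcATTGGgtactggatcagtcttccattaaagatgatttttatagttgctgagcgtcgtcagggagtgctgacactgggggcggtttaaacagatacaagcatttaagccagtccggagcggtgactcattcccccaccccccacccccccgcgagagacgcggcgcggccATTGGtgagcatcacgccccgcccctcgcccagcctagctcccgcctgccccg
Wfs1: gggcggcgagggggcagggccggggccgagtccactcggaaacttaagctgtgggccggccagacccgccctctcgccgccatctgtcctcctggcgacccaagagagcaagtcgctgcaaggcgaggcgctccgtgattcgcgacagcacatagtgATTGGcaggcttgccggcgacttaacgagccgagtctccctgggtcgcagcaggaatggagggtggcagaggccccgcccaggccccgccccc
The Prnp stretch holds 2 copies, which begin 222 and 53 bases before the start, and the Wfs1 stretch holds 1, at 93 bases. The motif, searched on both strands, is common: in the window from 250 bases before to 50 after the start it is in 38.2% of the 15614 genes with a promoter in the table, in 35 of 105 persisting falls (33.3%) and in 5 of 15 persisting rises (33.3%). The cAMP response element TGACGTCA, the site of the activity-dependent factor CREB, was in 2.49% of all genes, in 2 of the 105 falls (1.9%) and in 0 of the 15 rises. These shares are descriptions, and a match of letters is not a site.

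Of the other persisting rises, Olfm2, a secreted olfactomedin, read 8.01, 7.84 and 7.91 against 8.61, 8.45 and 8.52 at 10 weeks and 7.75, 7.64 and 7.72 against 8.30, 8.37 and 8.37 at 20 weeks, with effects of 0.61 and 0.64. Rgs13, which shortens signalling by G proteins, had effects of 0.81 and 0.97 at low levels, 4.63 to 4.93 in wild type at 10 weeks. Ntsr1, a receptor of neurotensin, rose by 0.57 and 0.56. Nts, which encodes neurotensin itself, had an effect of 0.43 at 10 weeks (adjusted p = 0.103 by limma, groups not overlapping) and rose by 0.77 at 20 weeks. Ece2, a peptide-processing protease, and Cyp4x1, a cytochrome of the brain, rose by 0.51 and 0.48 at 10 weeks and by 0.65 and 0.67 at 20 weeks; their 10-week calls were lost without any of 6 and 5 single arrays of that age (highest adjusted p = 0.1577 and 0.1373 by limma). Prnp, Olfm2, Nfya, Camk2n2, Ntsr1 and Rgs13 kept both calls when any 1 of the 12 hippocampus arrays was left out. As with the falls, none of them kept both calls with each age fitted on its own 6 arrays.

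Only 12 genes were called at 10 weeks and not at 20 weeks, 10 lower and 2 higher. All 12 had the same sign at 20 weeks, 8 with an unadjusted p below 0.05, and 4 were called there without transgenic array 1. The 2 with an unadjusted p below 0.05 for the difference were Maml2 and Pradc1. Maml2, a coactivator of Notch signalling, read 8.79, 8.91 and 8.82 against 8.35, 8.37 and 8.37 at 10 weeks and 8.17, 8.03 and 8.38 against 7.78, 8.17 and 8.20 at 20 weeks, where the groups overlapped. Its effect was -0.47 and then -0.15, with an unadjusted p of 0.0335 for the difference (adjusted p = 0.942 by limma). Pradc1 had effects of -0.35 and -0.09, with an unadjusted p of 0.0135. The 10-week calls of both were lost without single arrays (6 for Maml2, highest adjusted p = 0.1411; 3 for Pradc1, highest adjusted p = 0.1106, both by limma). Others among the 12 were Neto2, an auxiliary subunit of kainate receptors (-0.44 and -0.18), Itga4, an integrin (-0.44 and -0.19), H2bc4, a histone (-0.39 and -0.21), L1cam, an axonal adhesion molecule (0.32 and 0.21), and Dubr, a noncoding RNA (0.54 and 0.42). Their 10-week calls were also lost when 1 array was left out, in 4 of 12 fits for Neto2 and H2bc4, 5 for Itga4, 7 for L1cam and 10 for Dubr (highest adjusted p from 0.1669 for Itga4 to 0.2674 for Dubr, limma).

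The 960 genes called at 20 weeks and not at 10 weeks, 458 lower and 502 higher, mostly had the same sign at 10 weeks. Of them 855 (89.1%, against 64.2% of all genes) did so, and 364 of these had an unadjusted p below 0.05 there. The median effect of the lower genes was -0.14 at 10 weeks and -0.39 at 20 weeks, and of the higher genes 0.15 and 0.38. For 347 (36.1%) the difference had an unadjusted p below 0.05, a share raised by choosing genes for a large 20-week effect, and in none was it called. A call at 20 weeks only is therefore not shown to be a larger effect at 20 weeks.

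The 20 genes with the smallest p for the difference, 10 in each direction, are given as the best candidates for a changed effect. None passed the adjusted threshold. Skor1, a transcriptional corepressor, read 6.16, 5.94 and 5.75 against 5.89, 6.14 and 6.03 at 10 weeks, where the groups overlapped, and 6.18, 5.91 and 5.76 against 7.28, 6.76 and 6.79 at 20 weeks, where they did not. Its effect was 0.07 and then 0.99, a difference of 0.92 (95% interval 0.52 to 1.32, unadjusted p = 0.000129, adjusted p = 0.942 by limma). Dmrt2, a transcription factor, had effects of 0.04 and 0.66, and Twist1, another, of 0.09 and 0.58. Spag6, a protein of the axoneme of motile cilia, read 6.07, 5.88 and 5.72 against 5.96, 5.99 and 5.98 at 10 weeks and 5.42, 5.38 and 5.32 against 5.95, 6.25 and 6.10 at 20 weeks, with effects of 0.09 and 0.72. Ifit1, an interferon-induced protein, had effects of -0.15 and 0.43. The other genes of this 10 with a more positive effect at 20 weeks were Kin, Armc3, Crybg3, Lin28b and Ammecr1, with differences from 0.35 to 0.64.

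In the other direction, Foxl1, a forkhead transcription factor, read 5.52, 5.51 and 5.42 against 5.34, 5.48 and 5.62 at 10 weeks and 5.44, 5.27 and 5.27 against 4.77, 4.85 and 4.78 at 20 weeks. Its effect was 0.00 and then -0.53, with an unadjusted p of 0.00036 (adjusted p = 0.942 by limma). Gper1, a membrane oestrogen receptor, was the 1 among these 20 genes whose arrays separated at 10 weeks and overlapped at 20 weeks: 6.85, 6.91 and 6.78 against 7.16, 7.05 and 7.05, and then 6.69, 6.98 and 6.86 against 6.50, 6.73 and 6.66. Its effect was 0.24 and -0.21. Calcb and Sct, which encode the peptides beta-CGRP and secretin, had effects of 0.15 and 0.05 at 10 weeks and of -0.33 and -0.48 at 20 weeks. Acta1, Olfr695, Slc5a9, Sbk2, Olfr1174 and Siglec15 completed the 10, with differences from -0.35 to -0.79. All 20 had an adjusted p of 0.942 by limma.

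**Figure D3:**
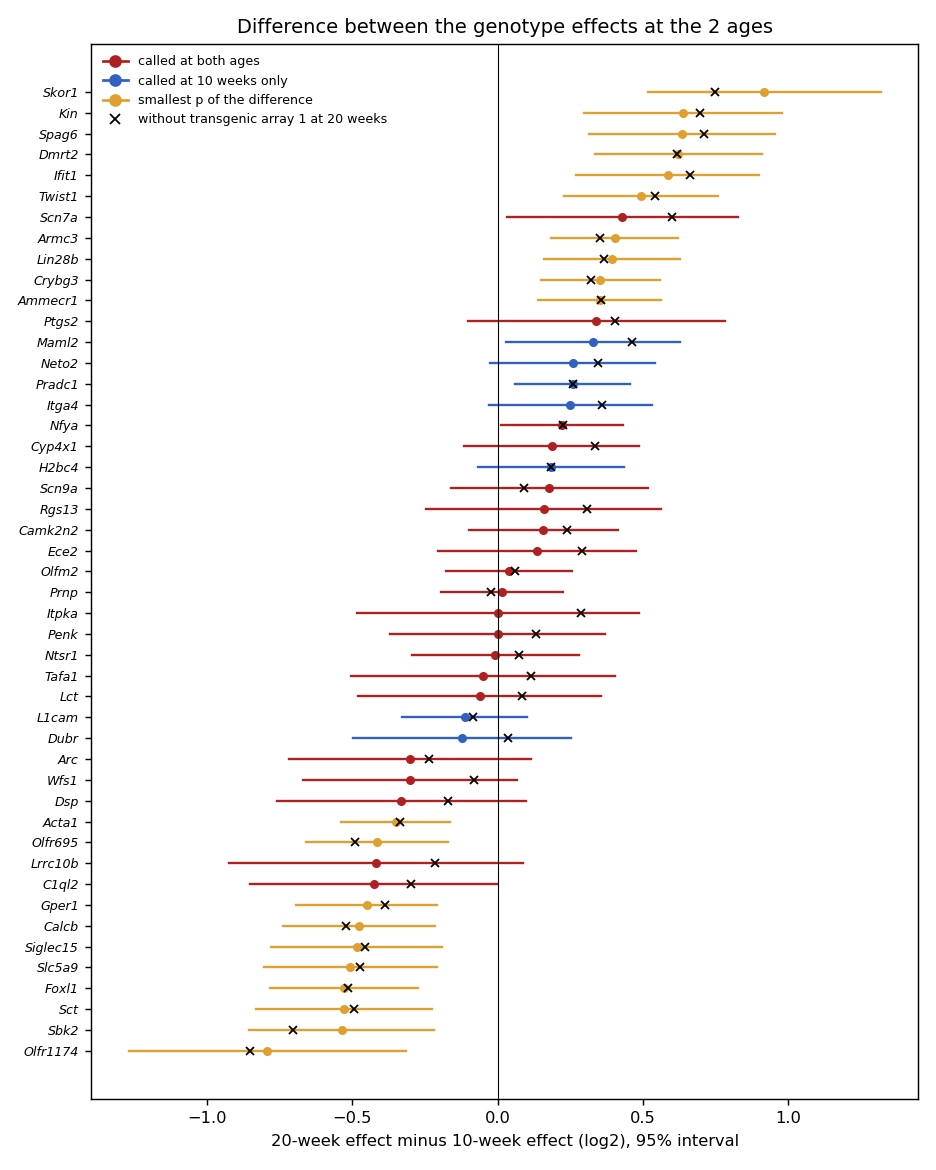
Difference between the 20-week and the 10-week effect (horizontal, log2) with its 95% interval for the persisting genes of largest effect, the named genes called at 10 weeks only and the 20 genes of smallest p for the difference; crosses mark the value without transgenic array 1 at 20 weeks. Of the persisting genes shown, those of C1ql2, Nfya and Scn7a have intervals that leave out 0, and every cross lies inside its interval.

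None of the astrocyte, microglia, oligodendrocyte, choroid plexus, endothelial, ependymal or interneuron genes was called at 10 weeks, and no list had a member with a called difference; with 0.858% of all genes called at 10 weeks, lists of this size would hold few or no calls. Interneuron genes were negative in 16 of 19 members at 10 weeks and 15 at 20 weeks, with none called at either age. Of 22 genes that mark projection neurons of the striatum, 2 were called lower at both ages (Penk and Rasd2), and of 12 thalamus genes 1 was (Prkcd, a protein kinase C, -0.64 and -0.50). Rasd2 lost its 10-week call without wild-type or transgenic array 3 of that age (highest adjusted p = 0.06984 by limma). Its 20-week call was lost without wild-type array 1 of that age (adjusted p = 0.05626 by limma). The choroid plexus list moved most: 12 of 15 members were negative at 10 weeks and 2 at 20 weeks, with medians of -0.14 and 0.19 and a median difference of 0.42, and no member was called at either age. Its median member ran from -0.31 to 0.44 around the wild-type mean over the 3 wild-type arrays at 10 weeks, and Ttr, the transthyretin of choroid plexus, from 8.77 to 12.45 there. Of 19 oligodendrocyte genes, 4 were called higher at 20 weeks (Aspa, Cnp, Mog and Opalin), with a median of -0.01 at 10 weeks and 0.10 at 20 weeks; each of the 4 lost its call without single arrays, the highest adjusted p running from 0.1079 for Cnp to 0.2169 for Opalin (limma). Microglia had 1 member called at 20 weeks with all arrays (Siglech, 0.37), and the call was lost in 10 of 12 fits that left out 1 array (highest adjusted p = 0.207 by limma). Without transgenic array 1, 9 of 18 microglia, 9 of 19 oligodendrocyte and 8 of 16 endothelial genes were called higher at 20 weeks, beside 21.0% of all genes higher and 11.4% lower in that fit, and 38.4% higher in the third of 4 bins of genes by level. On that array the median member of these lists lay 0.18, 0.05 and 0.32 below its wild-type mean, and on the other 2 transgenic arrays 0.22 to 0.25 above it. The part of these cells in the results was not tested. Among 31 genes of ependyma and motile cilia, Spag6, Capsl and Rsph4a were called higher at 20 weeks, while the median of the list was -0.01 and 0.00; Capsl had effects of 0.42 and 0.72, and Rsph4a of 0.08 and 0.43, its call lost without 4 single arrays (highest adjusted p = 0.2027 by limma).

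**Figure D4:**
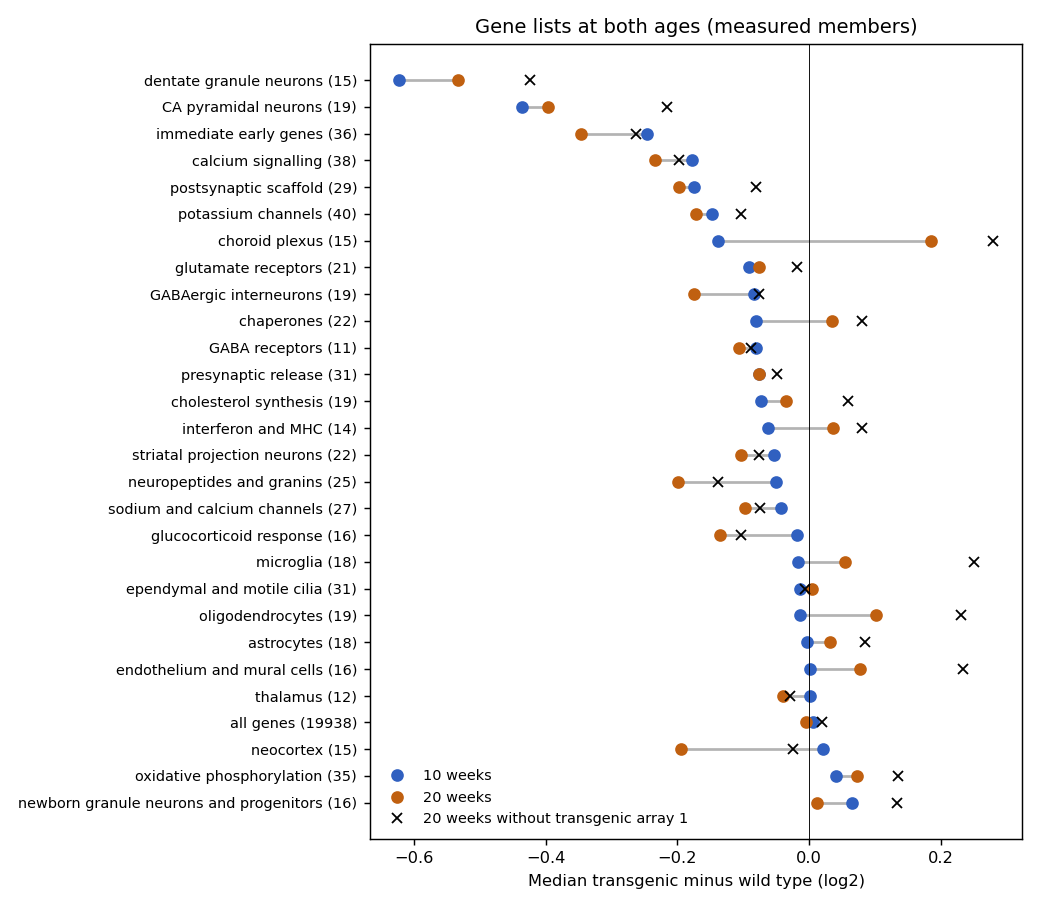
Median genotype effect (horizontal, log2) of each gene list (vertical, with the number of measured members) at 10 weeks, at 20 weeks and at 20 weeks without transgenic array 1. The dentate granule and CA pyramidal lists have the lowest medians at both ages with all arrays, -0.62 and -0.53 and -0.44 and -0.40; without transgenic array 1 the immediate early genes (-0.26) lie below the CA list (-0.22). The choroid plexus list has the widest gap between ages.

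The comparison was repeated without transgenic array 1 at 20 weeks, and then 126 genes had a called difference (0.632% of those tested), 77 with a more positive and 49 with a more negative effect at 20 weeks. By the definition above 124 grew and 2 shrank (Pdlim1, -0.40 and then 0.10, and Ubash3b, -0.26 and then 0.16, named after their values were seen), and in 80 of the 124 the effect at 10 weeks had the opposite sign. Of the 126, 124 were called at 20 weeks and 2 at 10 weeks, and none was among the 159 persisting genes. The more positive 77 had a median effect of -0.01 at 10 weeks and 0.53 at 20 weeks in this fit, and the more negative 49 of 0.06 and -0.56. In all, 6 genes named by rule were among them: Skor1 (adjusted p = 0.0486 by limma), Spag6 (0.045), Ifit1 (0.0486), Olfr695, Sbk2 and Abcb1a. With all arrays, 58 of the 126 had an unadjusted p below 0.05.

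The calls were unevenly spread over the level of the gene. When genes were split into 4 bins of equal number by mean level, transgenic arrays 2 and 3 at 20 weeks lay below the wild-type mean in the 2 dimmer bins (medians of -0.10 and -0.11 in the dimmest, -0.09 and -0.10 in the next) and above it in the 2 brighter (0.16 and 0.19, then 0.12 and 0.15). Transgenic array 1 read 0.06, -0.09, -0.15 and -0.09 in the same bins. The median effect of a bin lay between -0.002 and 0.017 at 10 weeks, and was -0.04, -0.09, 0.07 and 0.06 at 20 weeks. Single 10-week arrays varied with level in opposite directions. Transgenic array 1 at 10 weeks read -0.07, -0.07, 0.02 and 0.04, and array 2 read 0.05, 0.07, 0.01 and -0.04. Without transgenic array 1 at 20 weeks, the median difference was -0.10, -0.09, 0.17 and 0.13 from the dimmest bin to the brightest. Of the 77 positive calls 56 were in the brighter bins, and of the 49 negative calls 43 were in the dimmer bins. Given the same distribution on the remaining 11 hippocampus arrays by quantile normalisation, an alternative added after seeing the data, the medians of the 20-week effect became 0.00, -0.01, 0.02 and 0.02. The fit then called 5 differences, of which 3 (Hoxa5, Spag6 and Tex46) were among the 126; the other 2 were Mir543 and Rhebl1. All 126 kept their sign there, and 124 had an unadjusted p below 0.05, as did 2413 of all 19938 genes. The 126 were chosen on these same arrays before rescaling, so this was largely fixed in advance and is no independent support.

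**Figure D5:**
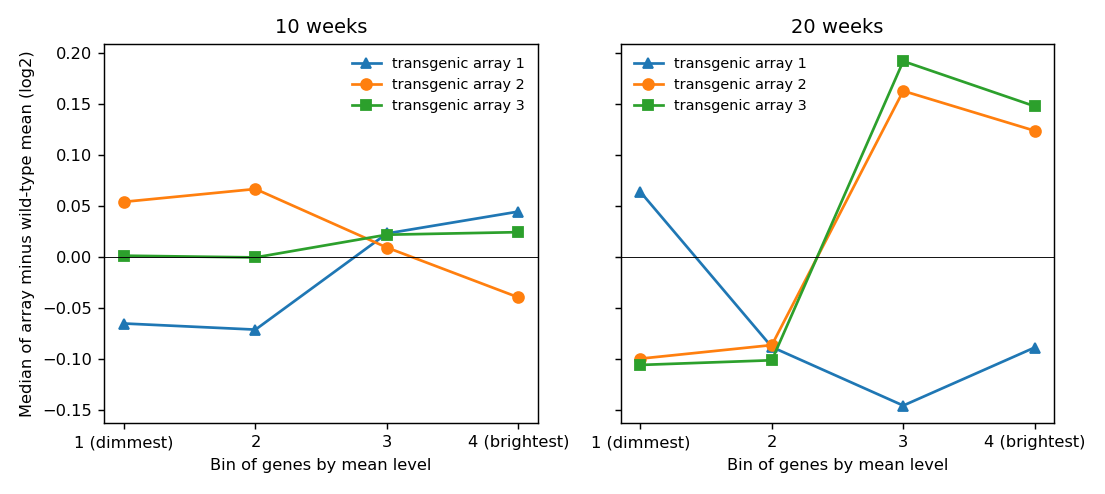
Median over genes of each transgenic array minus the wild-type mean of its age (vertical, log2) in 4 bins of genes by mean level (horizontal), at 10 weeks (left) and 20 weeks (right). At 20 weeks arrays 2 and 3 run from -0.10 and -0.11 in the dimmest bin to 0.16 and 0.19 in the third, while array 1 runs from 0.06 to -0.15.

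Spag6 was the 1 gene named by rule whose difference was called both without array 1 as deposited and after quantile normalisation of the remaining arrays, with a difference of 0.71 and of 0.75, and 0.63 with all arrays. Of the persisting genes, none had a called difference without array 1, and all 159 stayed called at both ages. In that fit 0.632% of all genes had a called difference, so 159 genes would hold few or none. The 159 were also chosen for calls in 1 direction at both ages. Without array 1 the genes called at 20 weeks rose from 1119 to 6445, and 1099 of the 1119 stayed called. Both results are therefore descriptions and not independent support for stable effects.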

How the data were processed

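RNA of pooled hippocampi was measured on Affymetrix MoGene 1.0 ST arrays. The deposited values are log2 intensities that the authors made with RMA in the oligo package, per the submitters' processing notes; no version is given there. Arrays of 1 tissue and age shared 76 to 150 exact values and arrays of different sets 0 to 2, so each of the 3 sets was treated as having its own normalisation. Of 35556 probe sets, 21789 had 1 gene symbol, and the probe set of highest mean was kept for each of 19938 genes; 1621 had several symbols, 12146 were not listed, and both were left out. Group means of all 18 arrays were fitted with limma 3.58.1 in R 4.3.3 (12 residual degrees of freedom), with contrasts for each effect and their difference. The spread behind each p-value was therefore shared with the cerebellum arrays. The 12 hippocampus arrays alone leave 8 residual degrees of freedom. RMA makes the values of an array relative to its set, so a shift shared by most genes is not seen, and the number of arrays limits the precision. The fit was tested on simulated data.

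Named genes were the 10 of smallest p for the difference in each direction, the 10 largest persisting falls and rises with groups that did not overlap, up to 5 per direction called at 1 age only, members of each list by smallest p, and Prnp, Htt and sex-linked genes; the text names some of these. Predicted genes were counted, not named. The members and lists were chosen with earlier results of these data known. The labels' protocols say that each array is a pool of separately extracted RNA; whether pools share animals was not tested. Alternatives were fits on fewer arrays, array weights, median centring, quantile normalisation, other probe set choices, filters on dim genes, a replicate block, and each array left out.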

Additional observations from a re-analysis of the deposited data

Results flagged for a closer look

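Ak7, an adenylate kinase of motile cilia, was picked out because its arrays separated in opposite directions at the 2 ages. It read 5.97, 5.93 and 5.97 in wild type against 5.88, 5.89 and 5.92 in transgenic mice at 10 weeks, and 5.66, 5.94 and 5.75 against 6.02, 6.01 and 6.02 at 20 weeks. The effects were -0.06 and 0.23, and the difference of 0.29 was tested and not called (unadjusted p = 0.013, adjusted p = 0.942 by limma). In all, 12 genes (0.0602% of those tested) separated in opposite directions, 7 lower and then higher and 5 higher and then lower. Groups of 3 arrays are too small for a test of outlying arrays.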

How the results depend on the processing

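Differences between the effects numbered 0 with all arrays and with the 12 hippocampus arrays only, median centring, quantile normalisation, bright genes only, an intensity trend or the mean of all probe sets; they numbered 3617 with array weights and 0 to 126 when 1 array was left out. Called genes numbered at 10 weeks 100, at 20 weeks 343 and at both ages 89 on the 12 hippocampus arrays only, and 8167, 8532 and 3794 with array weights. Each age fitted on its own 6 arrays gave 0 at 20 weeks and 0 at both ages. Median centring gave 268 at 10 weeks, and quantile normalisation gave 345 at 10 weeks, 895 at 20 weeks and 279 at both ages. Of these 895 genes, 683 were among the 1119 called at 20 weeks in the main fit. The quantile fit used the 12 hippocampus arrays only. Quantile normalisation with transgenic array 1 at 20 weeks left aside, chosen after seeing the data, gave 5 differences and 462, 2463 and 348 called genes. Leaving out 1 array gave 82 to 438 at 10 weeks, 259 to 6445 at 20 weeks, 82 to 329 at both ages, and 26 to 76 list members called at both. Among the named genes, the 10-week and 20-week effects that were called, and the 20 differences of smallest p, kept their direction in each alternative; the other called genes were not followed one by one, and why the counts moved was not tested. Deviations of same-numbered wild-type and transgenic arrays from their group means had r of -0.558, 0.453 and 0.118 at 10 weeks. At 20 weeks r was 0.0634, 0.035 and 0.109. Arrays of unlike number ran from -0.661 to 0.628 at 10 weeks. Deviations within a group of 3 constrain each other, so these values cannot decide whether the numbers pair the arrays. With the replicate block the counts were 0 differences, 130 at 10 weeks, 1221 at 20 weeks and 123 at both ages.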
